A study of Mus musculus and Homo sapiens with 27 samples.

Results

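The cell cycle and mitosis genes on the human lymphochip arrays of OCI-Ly7 were followed after transduction with a vector for the transcription factor IRF4. OCI-Ly7 is an established human line of diffuse large B cell lymphoma of the germinal centre type. The genes were chosen by symbol: symbols beginning with CCNA, CCNB, CCND, MCM, ORC, RFC, BUB, AURK, CENP, KIF or E2F, symbols of CDC or CDK followed by a digit, and PLK1, TOP2A, MKI67 and RRM1, with a few symbols left out by the rule. This gave 78 of the 4604 genes with a symbol, carried by 200 of the 15246 features. No ORC gene was among them, and the E2F genes were E2F3, E2F4 and E2F5. Some genes share the start of a name without being cell cycle regulators in the narrow sense, among them CDC37, CDC123, CDK5R1, CDK5R2 and MCM3AP.

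On each of 4 two-colour arrays, cells carrying the IRF4 vector (Vxy-IRF4) were labelled with Cy5 and cells carrying the empty vector (Vxypuro) with Cy3. The labels place 1 array at day 2, 2 arrays at day 3 and 1 array at day 5. The series' design text calls the control cells non-transduced, while the array labels name the empty vector. Nothing in the labels says that the arrays came from separate cultures, so the p-values measure only the spread between these arrays, which may be technical. All arrays had the same dye orientation, so a dye effect and a vector effect cannot be told apart. The mouse arrays of the series were not used here.

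Cyclins and the cyclin-dependent kinases they activate drive the cell through its phases. E2F factors regulate the transcription of genes of DNA synthesis, and the MCM helicase and the RFC clamp loader take part in copying the DNA. Aurora kinases, PLK1, centromere proteins, kinesins and the BUB checkpoint proteins carry out and supervise chromosome segregation. IRF4 is known as a factor required for plasma cell differentiation, a course in which B cells leave the cell cycle.

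Values are log2 ratios after each array was centred on its median, and a value of 1 stands for a 2-fold difference. The direction of the deposited ratio is not stated in the sources used here. It was taken as Cy5 over Cy3, so a positive value means higher with the IRF4 vector. With the opposite direction every sign below would turn. The 4 features of IRF4 did not settle it: 1 feature lay at 0.60, 0.64, 0.86 and 0.67 on day 2, day 3 replicate 1, day 3 replicate 2 and day 5, and the other 3 were above 0 on day 3 replicate 1 only. The same array order is used for every set of 4 values.

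No cell cycle or mitosis gene passed the test over the 4 arrays. With limma and Benjamini-Hochberg adjustment over all 4604 genes, 0 of the 78 genes had an adjusted p under 0.05, where 5 genes of the whole file, 0.109%, did. At an unadjusted p under 0.05, 17 of the 78 genes (21.8%) were reached, beside 1099 of 4604 genes (23.9%). Of the 17, 7 were higher with the IRF4 vector (8.97% of the 78, against 7.91% of all genes) and 10 were lower (12.8%, against 16.0% of all genes). These shares are near the background of the file. The mean ratio was above 0 for 41 genes (52.6%, where it was for 43.3% of all genes) and below 0 for 37. Its median was 0.022, where the median over all genes was -0.14. The 95% interval included 0 for 61 of the 78 genes, and for 23 of them it lay wholly within 1 log2 unit of 0. An interval without 0 is the same call as an unadjusted p under 0.05, which 23.9% of all genes reached. How many of all genes had an interval within 1 log2 unit of 0 was not counted. The standard errors, intervals and p-values use limma's moderated variance, which draws a gene's spread between arrays toward that of all genes. With 4 arrays for every gene, the standard error of a gene's mean ranged from 0.25 to 0.97, with a median of 0.31. The number of arrays limits the precision.

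The families were spread to either side of 0. Of the 12 CENP genes, 10 had a mean above 0, with a family median of 0.40. The 3 RFC genes all had means above 0, with a median of 0.30. Of the 5 genes with MCM symbols, 4 had a mean below 0, with a median of -0.998 over the 5. The gene above 0 was MCM3AP. The Aurora kinases and PLK1 were below 0 in all 3 cases, with a median of -1.02. The cyclins (8 genes) had a median of 0.30, the kinesins (8 genes) 0.12, the CDC genes (12 genes) -0.050, the E2F genes (3 genes) -0.18 and the cyclin-dependent kinases with their associated genes (18 genes) -0.21. No family median was tested. In bulk RNA, fewer cells in a phase of the cycle and less RNA per cell cannot be told apart.

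**Figure D1:**
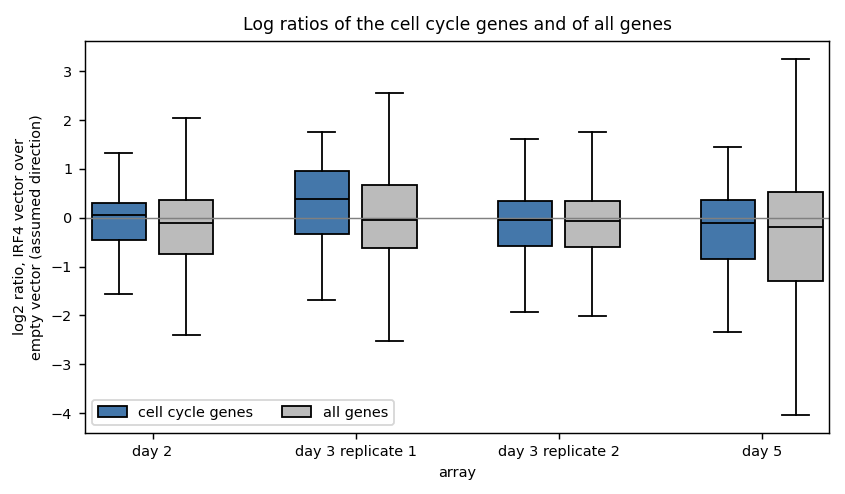
Log2 ratios, IRF4 vector over empty vector, of the 78 cell cycle and mitosis genes (blue) and of all 4604 genes (grey) on each array, as medians with quartile boxes, whiskers by the usual box plot rule and no points beyond them. The blue median is highest on day 3 replicate 1, at 0.39, where the grey one is at -0.037.

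Among the genes of G1 and S phase entry, the D cyclins pair with kinases of G1. CCND1 lay at 0.49, -0.36, 0.089 and 0.57, CCND2 at 0.20, -0.56, 0.046 and -0.87 and CCND3 at -0.35, -0.40, -0.98 and -2.22. CCND3 was thus below 0 on every array and lowest at day 5, and CCND1 and CCND2 had values of either sign. The mean of CCND3 was -0.99 (SE 0.39, 95% interval -1.94 to -0.031, adjusted p = 0.200). CCNDBP1, which encodes a protein that binds D cyclins, lay at 1.60, 1.25, 0.37 and 1.20, above 0 on every array, with a mean of 1.10 (SE 0.31, 95% interval 0.36 to 1.85, adjusted p = 0.142).

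CDK6, a partner of the D cyclins, lay at -0.95, -0.79, -1.92 and -0.96, below 0 on every array. Its mean was -1.15 (SE 0.31, 95% interval -1.90 to -0.41, adjusted p = 0.137). Its 6 features were not alike: their means ran from -4.20 to 0.84, and 1 of the 6 was above 0. CDK2, which acts with E and A cyclins in S phase, lay at -0.38, 0.73, 0.18 and 0.079, with 3 of 4 arrays above 0. E2F3, an activator, lay at -0.61, 0.30, 0.10 and -0.85, and E2F4, best known as a repressor with the pocket proteins, at -0.27, 0.74, 0.16 and -1.36. Both had day 2 and day 5 below 0 and the day 3 arrays above it, but this pattern rested on 1 feature of each gene. That feature held at least 1 of the whole-number ratios described below. Without it E2F3 lay at -0.22, 1.03, 0.29 and 0.14, and E2F4 at 0.024, 1.00, -0.070 and -0.61. E2F5, also a repressor, lay at 0.078, 1.17, 0.079 and 0.34, above 0 on every array.

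CDC25A, the phosphatase that activates kinases at the start of S phase, had the smallest p of the 78 genes. Its only feature lay at -4.62, -0.71, -7.20 and -3.59, and every array was below 0, with day 3 replicate 1 nearest to 0 and day 3 replicate 2 farthest from it. The mean was -4.03 (SE 0.97, 95% interval -6.40 to -1.66, adjusted p = 0.130). CDC25B lay at 0.29, 0.79, -0.048 and 0.20 and CDC25C, which acts on mitotic entry, at -0.66, 0.35, -0.56 and -0.83. CDC25C was above 0 on day 3 replicate 1 alone.

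The remaining kinases named by their p-values are less tied to the cycle. CDK3 lay at -1.27, -0.41, -2.46 and -4.96, CDK10 at -1.18, -0.25, -0.78 and -1.20 and CDK19, a kinase of the Mediator complex, at -1.56, -0.066, -0.27 and -2.35. All 3 were below 0 on every array. The mean of CDK3 was -2.27 (SE 0.74, 95% interval -4.07 to -0.48, adjusted p = 0.163), and that of CDK10 was -0.85 (SE 0.29, 95% interval -1.56 to -0.14, adjusted p = 0.172). The 2 features of CDK19 opposed each other, with means of -2.96 and 0.84. CDK7, which activates other kinases of the family and phosphorylates RNA polymerase, lay at -0.15, 0.45, -0.62 and -0.25, and CDK9, an elongation kinase, at 0.047, -0.03, -0.60 and -0.57.

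Among the replication genes, MCM4, MCM5 and MCM7 are subunits of the replicative helicase. MCM4 lay at -2.34, 0.046, -2.99 and -1.60, MCM5 at -1.70, 0.15, -1.71 and -1.44 and MCM7 at -1.53, 0.62, -1.56 and -1.51. For all 3 genes, day 3 replicate 1 was above 0 and the other 3 arrays were below -1. The mean of MCM4 was -1.72 (SE 0.52, 95% interval -2.99 to -0.45, adjusted p = 0.156). The mean of MCM5 was -1.17 (SE 0.40, 95% interval -2.14 to -0.21, adjusted p = 0.171), and the mean of MCM7 was -0.998 (SE 0.45, 95% interval -2.09 to 0.098, adjusted p = 0.233). MCM5 and MCM7 have 1 feature each. The 3 features of MCM4 had means of -5.20, -0.81 and 0.86, so its ratio rests on which features are counted. The lowest of them held whole-number ratios, described below, on 2 arrays. Without that feature MCM4 lay at 0.37, 0.44, -0.24 and -0.48. MCM3AP, a nuclear export factor that binds MCM3, lay at 0.43, 1.74, 0.34 and 0.45.

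The other replication genes lay closer to 0 or above it. CDC6, which loads the helicase at origins, lay at 0.31, 0.68, 0.30 and 0.64, above 0 on every array. CDC7, the kinase that fires origins, lay at 0.15, 0.18, 0.029 and -0.30, with a mean of 0.015 (SE 0.26, 95% interval -0.61 to 0.64, adjusted p = 0.976). Of the clamp loader subunits, RFC1 lay at 0.28, 0.88, -0.24 and 0.29, RFC3 at -0.069, 1.33, -0.15 and -0.15 and RFC4 at 0.49, 1.18, 0.36 and -0.10, each with its highest value on day 3 replicate 1. RRM1, the large subunit of ribonucleotide reductase, lay at 0.37, 1.38, 0.31 and 0.028, above 0 on every array. TOP2A, the topoisomerase that untangles sister chromatids, lay at -0.15, 0.42, -0.33 and -0.35, above 0 on day 3 replicate 1 alone.

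The cyclins and kinase of mitotic entry showed no common direction. CCNA1, a cyclin best known from the germ line, lay at 0.29, 0.13, 1.61 and 1.41, and CCNA2, the A cyclin of dividing somatic cells, at -0.21, 1.31, 0.54 and 0.38. CCNB1 lay at 0.19, 1.57, -0.072 and -0.094 and CCNB2 at -0.18, -0.047, -0.27 and -0.17. CCNB2 had the narrowest values of these genes, and its 95% interval of -0.77 to 0.44 lay within 1 log2 unit of 0. CDK1, their kinase partner, lay at 0.045, 0.81, -0.15 and -0.42, with a mean of 0.069 (SE 0.31, 95% interval -0.68 to 0.82, adjusted p = 0.897).

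**Figure D2:**
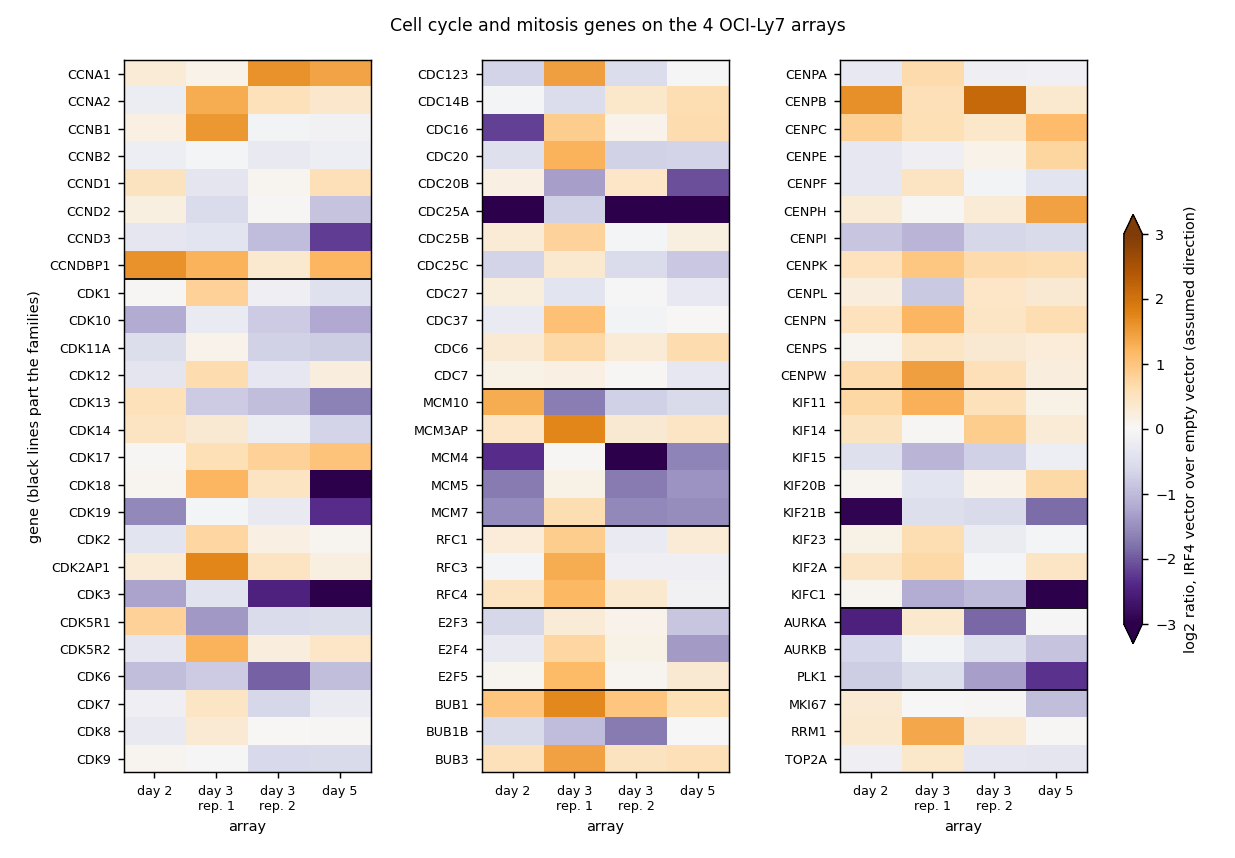
Log2 ratio, IRF4 vector over empty vector, of each cell cycle and mitosis gene (rows, by family) on day 2, day 3 replicate 1, day 3 replicate 2 and day 5 (columns); colours saturate at -3 and 3. By their gene means, helicase genes MCM4, MCM5 and MCM7 are above 0 only on day 3 replicate 1. The features of MCM4 differ, with means of -5.20, -0.81 and 0.86.

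PLK1, a kinase of mitotic entry and spindle assembly, lay at -0.77, -0.50, -1.33 and -2.30, below 0 on every array and lowest at day 5. Its mean was -1.23 (SE 0.37, 95% interval -2.13 to -0.32, adjusted p = 0.157). All 4 of its features had means below 0, from -1.70 to -0.57. AURKA, the kinase of spindle poles, lay at -2.51, 0.36, -1.89 and -0.043, and AURKB, the kinase of the chromosomal passenger complex, at -0.64, -0.082, -0.46 and -0.89. Of the 3 features of AURKA, 1 had a mean of -2.54 and the other 2 had means of -0.31 and -0.20. CDC20, the activator of the anaphase-promoting complex, lay at -0.45, 1.25, -0.69 and -0.66. Its 2 features gave nearly equal values, 1.26 and 1.24 on day 3 replicate 1, and each was below 0 on the other arrays.

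The checkpoint kinase BUB1 lay at 1.00, 1.71, 1.00 and 0.60, above 0 on every array. Its mean was 1.08 (SE 0.29, 95% interval 0.36 to 1.79, adjusted p = 0.139), and its 2 features had means of 1.15 and 1.01. BUB3, its partner at kinetochores, lay at 0.55, 1.45, 0.50 and 0.58, with a mean of 0.77 (SE 0.29, 95% interval 0.057 to 1.48, adjusted p = 0.191). BUB1B, the third gene of the group and a part of the checkpoint complex, was on the other side of 0, at -0.56, -0.98, -1.69 and -0.003. Its 2 features had means of -1.50 and -0.12.

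Of the centromere genes, CENPB, whose protein binds centromeric satellite DNA, lay at 1.62, 0.56, 2.14 and 0.37, above 0 on every array. Its mean was 1.17 (SE 0.38, 95% interval 0.24 to 2.11, adjusted p = 0.163). CENPC, a link between centromere and kinetochore, lay at 0.84, 0.59, 0.41 and 1.14, and 3 genes of the constitutive centromere network lay at 0.54, 0.97, 0.67 and 0.63 (CENPK), 0.52, 1.21, 0.46 and 0.61 (CENPN) and 0.68, 1.46, 0.58 and 0.22 (CENPW). These 4 genes were above 0 on every array, and their means ran from 0.70 to 0.74. CENPI, of the same network, was below 0 on every array, at -0.86, -1.07, -0.62 and -0.57, with a mean of -0.78 (SE 0.26, 95% interval -1.41 to -0.15, adjusted p = 0.166). CENPA, the centromeric histone, lay at -0.30, 0.67, -0.16 and -0.13 and CENPF at -0.31, 0.47, -0.082 and -0.38.

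CENPE, a kinetochore motor, lay at -0.31, -0.16, 0.14 and 0.77. Of its 6 features, 5 were between 1.67 and 2.13 at day 5, and the sixth lay at -4.95 there. Among the kinesins, KIF11, which pushes spindle poles apart, lay at 0.71, 1.29, 0.55 and 0.16, above 0 on every array. KIF23, a motor of the central spindle, lay at 0.15, 0.61, -0.22 and -0.048. KIF21B, a motor known mainly from neurons and immune cells, was below 0 on every array, at -2.92, -0.48, -0.56 and -1.84, with a mean of -1.45 (SE 0.48, 95% interval -2.61 to -0.29, adjusted p = 0.163). KIFC1, which gathers spindle poles, lay at 0.074, -1.16, -0.99 and -4.72. MKI67, the proliferation marker with 8 features, lay at 0.31, -0.0092, 0.04 and -0.95, with a mean of -0.15 (SE 0.31, 95% interval -0.91 to 0.61, adjusted p = 0.771).

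**Figure D3:**
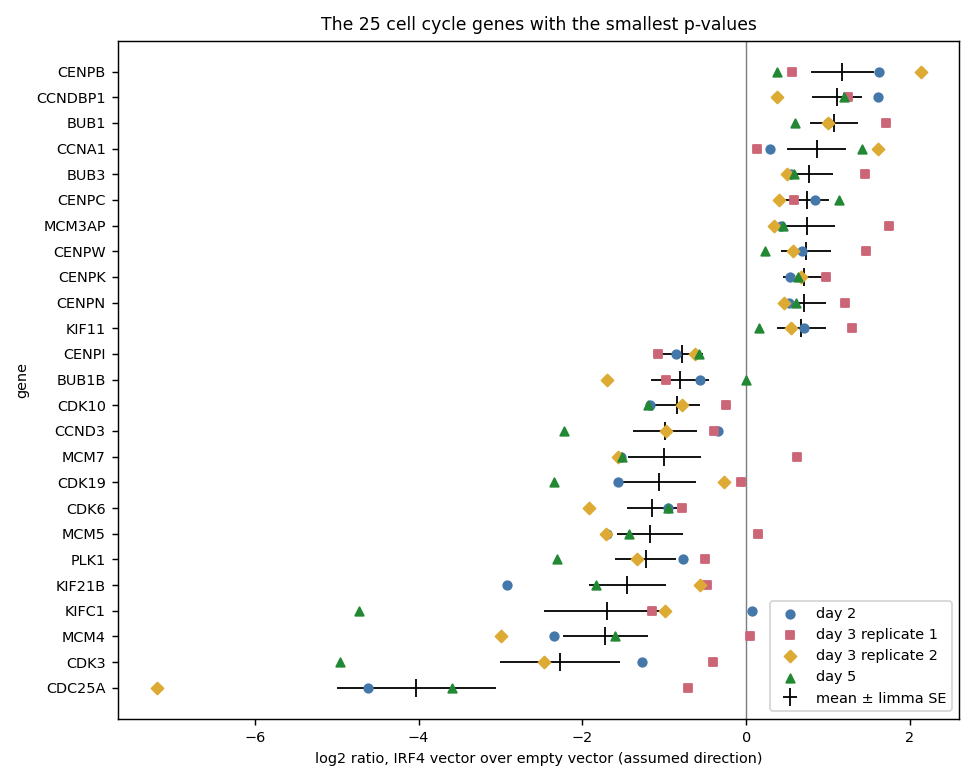
Log2 ratio, IRF4 vector over empty vector, on each of the 4 arrays for the 25 cell cycle and mitosis genes with the smallest p, with the mean and its SE from limma. CDC25A has the lowest mean, -4.03, and CENPB the highest, 1.17.

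Of the 78 genes, 19 (24.4%) were above 0 on all 4 arrays, where 17.0% of all genes were. Below 0 on all 4 arrays were 13 genes (16.7%), where 21.0% of all genes were. Means beyond 1 log2 unit were found above 0 for 3 genes (BUB1, CCNDBP1 and CENPB; 3.85%, where 4.5% of all genes were) and below 0 for 10 (12.8%, where 18.5% of all genes were).

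Day 3 replicate 1 stood apart for many of the genes. The median of the 78 genes was 0.046 on day 2, 0.39 on day 3 replicate 1, -0.049 on day 3 replicate 2 and -0.098 on day 5. Over all genes these medians were -0.11, -0.037, -0.072 and -0.19. Day 3 replicate 1 was the highest of the 4 arrays for 52 of the 78 genes (66.7%), where it was for 42.1% of all genes. It was above 0 with the other 3 arrays below 0 for 13 of the 78 (16.7%), where this held for 12.3% of all genes. On the 3 arrays other than day 3 replicate 1, 22 of the 78 genes (28.2%) were above 0 each time, where 23.5% of all genes were, and 26 (33.3%) were below 0 each time, where 33.3% of all genes were. The 13 genes above 0 on day 3 replicate 1 alone were AURKA, CDC123, CDC20, CDC25C, CDK11A, CDK7, CENPA, CENPF, MCM4, MCM5, MCM7, RFC3 and TOP2A. Without its feature with a mean of -5.20, MCM4 was above 0 on day 2 too, at 0.37. CDK11A has a near-identical copy in the genome, which cDNA features may not separate. The ratio on day 3 replicate 1 minus the mean of the other 3 arrays had a median of 0.74 over the 78 genes and 0.43 over all genes. Without day 3 replicate 1 the median of the 78 genes was -0.11, with 32 genes above 0, where the median of all genes was -0.21, and 0 of 78 had an adjusted p under 0.05.

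**Figure D4:**
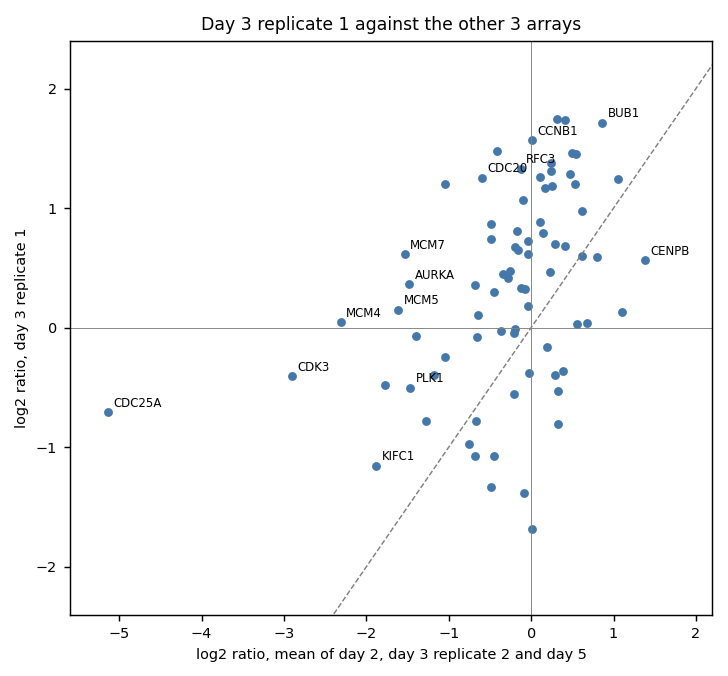
Log2 ratio, IRF4 vector over empty vector, of the cell cycle and mitosis genes on day 3 replicate 1 set against the mean of the other 3 arrays, with a dashed line of equality. For 58 of the 78 genes (74.4%) day 3 replicate 1 lies above that mean, where it does for 65.4% of all genes.

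The database numbers in the labels fall into a lower range (day 3 replicate 1 and day 5) and a higher range (day 2 and day 3 replicate 2). The median of the 78 genes was 0.15 within the lower range and -0.046 within the higher one, where the medians of all genes were -0.059 and -0.13. Within the lower range AURKA had a mean of 0.16 and CDC20 a mean of 0.30, against -2.20 and -0.57 within the higher range. The arrays of the lower range differed for these genes. On day 3 replicate 1 and day 5, AURKA lay at 0.36 and -0.043 and CDC20 at 1.25 and -0.66. MCM5 had a mean below 0 in each range, at -0.64 and -1.71, as did PLK1, at -1.40 and -1.05. For MCM5 the lower range held 0.15 on day 3 replicate 1 and -1.44 on day 5. With 2 arrays a range, day and range are partly confounded, and the part of the range in these values was not tested.

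The change per day was fitted as a slope over the 4 arrays. No gene of the 78 passed after adjustment, and none of the 4604 did (0.0%). At an unadjusted p under 0.05, 4 of the 78 genes (5.13%) were reached, beside 12.3% of all genes: CCND3, CDK18, CDK3 and KIFC1. KIFC1 had the steepest slope, -1.65 log2 units per day (SE 0.26, adjusted p = 0.140), and its value at day 5 was far below the others. CDK18 lay at 0.084, 1.21, 0.48 and -3.70, with a slope of -1.47 (SE 0.46, adjusted p = 0.261), and it too was low only at day 5. CDK18 was chosen after its values were seen, for its slope. Day 5 is 1 array, and the day 5 values of KIFC1 and CDK18 are among the whole-number ratios described next. So is the day 5 value of 1 feature of CCND3 and of 1 feature of CDK3. With all such values set to missing and the arrays centred again, the slope of KIFC1 was -1.10 (SE 0.72, adjusted p = 0.849) and that of CDK18 was 0.80 (SE 0.75, adjusted p = 0.917). The slope of CCND3 was -0.49 (SE 0.26, adjusted p = 0.772) in place of -0.66. The slope of CDK3 was steeper, at -1.53 (SE 0.38, adjusted p = 0.436) in place of -1.34.

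Several of the lowest values share a property of the file. On each array 1 value recurred on 75 to 208 features, and many extreme values lay at whole-number ratios to it: of the features with a ratio between 51 and 150, from 86.3% to 96.7% were whole within 0.0011 log2 units. Whole-number ratios from 6 to 150 were marked, and so was every ratio above 150, whole or not. The values so marked made up 6.21% of the features on day 2, 1.59% on day 3 replicate 1, 3.94% on day 3 replicate 2 and 14.9% on day 5. All marked values are called whole-number ratios throughout. Among the 200 features, 17 features of 16 genes held at least 1 of them. The signal of each colour was not analysed here, and the part of low signal in these values was not tested.

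With those values set to missing and each array centred again, a choice made after seeing the data, 0 of the 78 genes passed. Of the 16 genes that held such values, 12 had means of the same sign nearer to 0, 1 had a mean farther from 0 and 3 changed sign. CDC25A had a mean of -2.26 in place of -4.03, MCM4 -0.44 in place of -1.72, CDK6 -0.50 in place of -1.15, KIFC1 -0.73 in place of -1.70 and AURKA -0.59 in place of -1.02. The 3 that changed sign were CDK19, at 0.15 in place of -1.06, CDK18, at 0.55 in place of -0.48, and CDC16, at 0.36 in place of -0.15. CENPE had a mean of 0.46 in place of 0.11. PLK1, MCM5, MCM7, BUB1 and CENPB held no such value and moved only through the new centring, PLK1 from -1.23 to -1.31 and BUB1 from 1.08 to 0.99. The new centring alone also turned the sign of some genes near 0, such as CDK1, from 0.069 to -0.014. It is part of each shift given here.

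More broadly, features of 1 gene often differed. Of the 56 genes with more than 1 feature, 26 had feature means of 1 sign and 30 had means of both signs. Among the genes given with values, feature means ran from -0.38 to 1.75 for CCNA2, from -0.59 to 1.11 for CDC25B and from -1.21 to 0.50 for CDC25C. They ran from -0.34 to 0.28 for CDK1, from -0.049 to 0.35 for CDK2, from -0.43 to 0.099 for CDK7 and from -1.43 to 1.10 for CDK9. For the replication genes CDC7, RFC1 and TOP2A they ran from -0.45 to 0.48, from -0.098 to 0.77 and from -0.49 to 0.48. The value of a gene thus depended on which of its features were averaged. In E2F3 and E2F4, 3 of 4 and 3 of 6 features were above 0 (E2F4 from -1.53 to 0.49). Of the mitotic genes, AURKB ran from -1.14 to 0.11, CENPA from -0.41 to 0.45, CENPF from -0.44 to 0.34 and KIF23 from -0.095 to 0.46. For MKI67, 4 of 8 features were above 0, in a range from -1.62 to 0.71. The range over a gene's features had a median of 0.79, exceeded 1 log2 unit for 20 genes and exceeded 2 for 13. When single features were tested in place of genes, 0 of the 200 features had an adjusted p under 0.05, and 39 (19.5%) had an unadjusted p under 0.05, where 22.2% of the 10169 features with a symbol did.

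**Figure D5:**
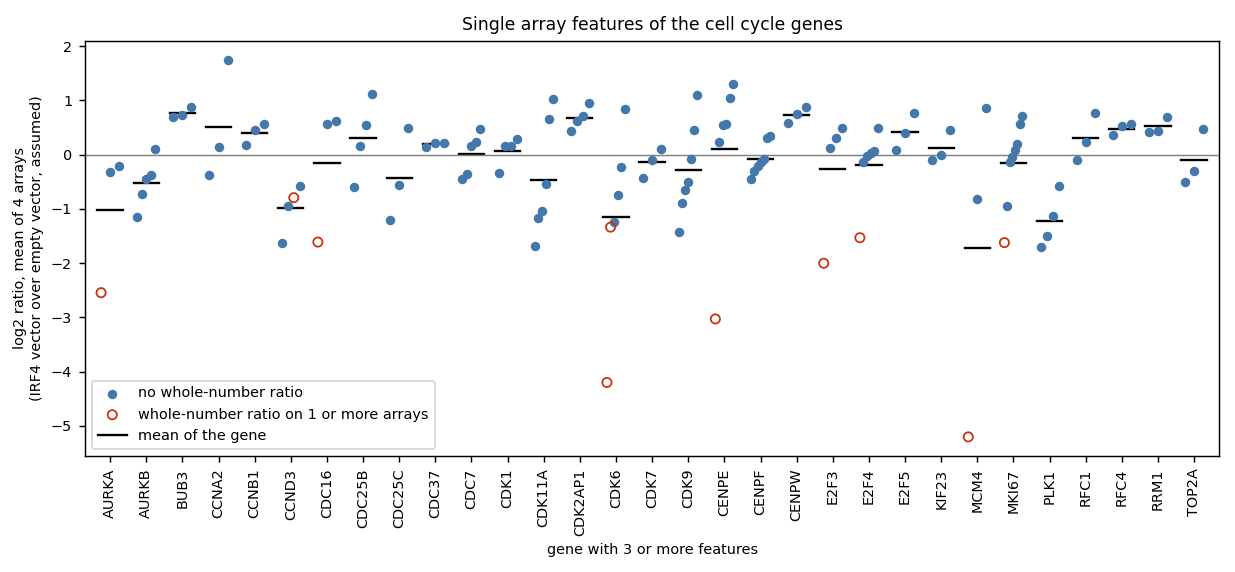
Mean log2 ratio, IRF4 vector over empty vector, of each feature (points) of the cell cycle and mitosis genes with 3 or more features, with the gene's mean as a line and open points for features that hold a whole-number ratio. The features of PLK1 lie between -1.70 and -0.57, and those of CDK6 between -4.20 and 0.84.

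Other genes of the cycle were taken from fixed lists. Of the CDK inhibitors and pocket proteins, which restrain the cycle, 10 of 13 listed were measured, 0 passed in either direction and the median was -0.21. Of the 10, 3 had a mean above 0 and 7 below. CDKN1B, which encodes p27, lay at 0.22, 1.33, 1.01 and 0.75, CDKN3 at 0.95, 1.28, 0.56 and 0.35 and CDKN2A at -0.24, -0.10, -1.48 and -1.19. For CDKN2A, 2 feature values were whole-number ratios. Of the other cyclins and kinases, 21 of 21 were measured, 0 passed and the median was 0.22. CCNG2, a cyclin linked to cell cycle arrest, had the smallest p of that list at -3.70, -1.09, -2.24 and -4.45, with a mean of -2.87 (SE 0.58, adjusted p = 0.124), and 4 of its values were whole-number ratios.

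Of the replication fork and nucleotide supply genes, 20 of 28 were measured, 0 passed and the median was -0.20. CDT1, a licensing factor, lay at -1.46, -1.63, -0.93 and -3.71 and TK1, thymidine kinase, at -0.82, -0.58, -1.31 and -1.94. Each was below 0 on every array, with adjusted p = 0.134 and adjusted p = 0.142. Of the genes of mitosis, condensin and anaphase, 13 of 28 were measured, 0 passed and the median was -0.36. UBE2C, the ubiquitin-conjugating enzyme of the anaphase-promoting complex, lay at -2.25, 0.17, -0.37 and -1.90 and NCAPH, a condensin subunit, at -0.56, -0.22, -0.69 and -1.13. For UBE2C, 2 feature values were whole-number ratios.

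The file holds ratios and not levels, so the presence of B cell markers in the line was not tested. Of 10 B cell markers, 8 were measured, with a median of -0.36 and 0 past the threshold. Of 7 plasma cell markers, 6 were measured, with a median of 1.95. TNFRSF17, the receptor BCMA, was the 1 that passed, at 2.63, 3.88, 3.55 and 3.38, with a mean of 3.36 and adjusted p = 0.0455. That call held under 8 of 17 alternatives and was lost under 9 (adjusted p up to 0.257), among them each of the 4 arrays left out, no centring and the median of features, with means from 3.09 to 3.63. JCHAIN had a mean of 2.50, XBP1 of 2.07, PRDM1 of 1.83, SDC1 of -0.078 and MZB1 of -0.23, none of them past the threshold. The T and NK cell markers (9 of 9 measured) had a median of -0.55 and the monocyte and macrophage markers (5 of 8) a median of -0.68, with 0 past the threshold in each. Their part in the values of the cell cycle genes was not tested.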

How the data were processed

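The arrays are spotted lymphochip cDNA arrays, hybridised with total RNA labelled by reverse transcription. What the authors deposited is a log2 ratio for every feature of an array. Its base follows from the values, and for scanner, background correction and normalization the sources used here name nothing. The platform's annotation gave 1 symbol for 10169 features, several for 4 and none for 5073. The median of all 15246 features was subtracted from each array, and a gene's value was the mean of its features. Mean ratios were tested against 0 with an intercept-only fit in limma 3.58.1 (R 4.3.3), and the change per day with day as a number, 2-sided, with Benjamini-Hochberg adjustment over 4604 genes and a threshold of 0.05. The day fit has few residual degrees of freedom. Python 3.11.15 made the tables and figures. The fits were also run on simulated data with known changes. The simulated noise was independent and normal, without the whole-number ratios or array differences of these data. No array duplicated another. Genes given with values on every array were the 25 with the smallest p and a set of central regulators, 54 in all, and CDK18, chosen after its values were seen. Genes and lists were chosen with earlier results of these data known. Alternatives changed the centring, scaling, feature summary, array weights and arrays used.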

Additional observations from a re-analysis of the deposited data

Results flagged for a closer look

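For 54 cell cycle and mitosis genes the 4 arrays were searched for 1 value far from the others, by its gap to the nearest value as a share of the range. Chance flags about 1 in 20 such groups, and 8 genes (14.8%) were found, where 481 of all 4604 genes (10.4%) had such an array. On day 3 replicate 1 the value was far above the other arrays for 7 genes (13.0%, where it was for 5.1% of all genes): MCM3AP at 1.74, CCNB1 at 1.57, BUB3 at 1.45, RFC3 at 1.33, CDC20 at 1.25, MCM7 at 0.62 and MCM5 at 0.15. For CDK6, day 3 replicate 2 was far below the others, at -1.92. The 54 genes were partly chosen by their p-values over the same arrays, and no test of these shares was made.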

How the results depend on the processing

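In the 4-array comparison 0 of the 78 cell cycle and mitosis genes passed in limma (17 at an unadjusted p under 0.05), and 0 passed under the alternatives run, except 2. With array weights 5 passed (CDC25A, CDK6, MCM4 and MCM5 below 0, CENPB above 0), where 262 of all 4604 genes did. The weight was 0.43 for day 3 replicate 1 and 2.99 for day 3 replicate 2. Within the lower database range alone, 2 arrays, 2 passed (CDK3 and KIFC1, below 0), where 342 of all 4604 genes did. A gene's own spread is poorly measured by 2 arrays: CDK3 lay at -0.41 and -4.96 there and KIFC1 at -1.16 and -4.72. CDC25A, CDK6, MCM4, CDK3 and KIFC1 hold whole-number ratios. Leaving out 1 array in turn gave 0 of the 78 each time. For all genes the count of 5 became 1 with no centring, with centring over the named features or with the median of features, 94 with quantile normalization, 262 with array weights, 0 with the day 3 arrays averaged first, 8 with the database range as a random block, 342 within the lower range, 0 within the higher range, 46 with whole-number ratios set to missing (chosen after seeing the data), 8 at an adjusted p of 0.10 and 0 for single features (2256 at an unadjusted p under 0.05), and 0 to 1 when 1 array was left out. No centring shifted the median of all genes from -0.14 to -0.33. For the change per day, leaving out 1 array gave 0 to 277 of all genes and 0 to 3 of the 78: without day 2, CDK18, CDK3 and KIFC1, and without day 3 replicate 2, KIFC1. The median of the 78 genes stayed within the spread between arrays (SD 0.22) under all alternatives. Of the 54 genes given with values, 37 kept their sign under all 17 alternatives. The causes were not tested. Updating symbols was not run. No paired analysis was possible because each array is itself a ratio of both vectors.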
